A study of Mus musculus with 2 samples.

Results

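The genes described here take fatty acids into muscle and break them down in mitochondria: Lpl, Cd36 and Fabp3 for uptake, Cpt1b and Cpt2 for the carnitine shuttle, and Acadvl, Acadl, Acadm, Hadha and Hadhb for beta-oxidation. They were chosen by name among the annotated genes of the count tables. All 10 had reads in both libraries, out of 14900 annotated genes with reads in at least 1 library. The data are long-read RNA-seq, in which each read is meant to follow 1 RNA copy along its spliced length, from gastrocnemius, a calf muscle made mostly of fast fibres. There was 1 group, with no treatment or control: male adult B6CASTF1/J mice (F1 hybrids of the B6 and CAST strains, per the labels) aged 18 to 20 months, in 2 libraries that the labels call biological replicates 2 and 1, each from 2 µg of total RNA. The labels give separate biosamples with the same donor entry. Whether each biosample is 1 mouse or pooled tissue is not given in the sources used here.

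Fatty acids reach muscle bound to albumin or inside lipoprotein triglyceride, which lipoprotein lipase hydrolyses at the capillary wall. CD36 helps them across the membrane, FABP3 carries them in the cytosol, and after activation to acyl-CoA they enter mitochondria as carnitine esters. There each turn of beta-oxidation is an oxidation, a hydration, a second oxidation and a thiolysis that releases acetyl-CoA, and oxidative fibres rely on this pathway more than glycolytic fibres do.

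The libraries held 1173233 reads in replicate 2 and 1509380 in replicate 1. Spike-in controls took 0.590% of reads in replicate 2 and 2.71% in replicate 1. Levels are given as reads per 1000000 reads of the library (CPM), and 3 reads make 2.56 CPM in replicate 2 and 1.99 CPM in replicate 1. Fast fibre genes dominated both libraries, with a summed level over 6 markers of 307309 CPM in replicate 2 and 307144 CPM in replicate 1. Atp2a1 made up much of that sum, and 4 of the 6 had log2 ratios below 0, with Pvalb called lower in replicate 2 (929 reads in replicate 2, against 3353 in replicate 1). The 9 slow and oxidative fibre markers summed to 7192 CPM in replicate 2, against 671 CPM in replicate 1, and all 9 were higher in replicate 2 by the test described below, so the libraries differed in this respect before any of the 10 genes is considered.

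Some of the sequence behind the results is shown first. Hadha and Hadhb encode the subunits of one enzyme and lie head to head on chromosome 5, with 85 bases between the annotated starts of their most read transcripts, Hadha-205 on the minus strand and Hadhb-201 on the plus strand. The RefSeq promoter window of Hadhb (GRCm38.p6, chr5:30155003-30155302, plus strand) spans that gap, which is in capitals.
Hadhb promoter: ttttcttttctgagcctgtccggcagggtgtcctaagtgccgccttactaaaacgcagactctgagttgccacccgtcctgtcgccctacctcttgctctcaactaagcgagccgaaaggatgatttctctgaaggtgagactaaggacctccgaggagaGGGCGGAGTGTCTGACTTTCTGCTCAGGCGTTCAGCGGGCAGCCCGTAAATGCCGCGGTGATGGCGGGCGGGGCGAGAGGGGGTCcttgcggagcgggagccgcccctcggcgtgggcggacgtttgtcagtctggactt
The window holds GGGCGG, the letters of a GC box, 4 times on either strand, and no TATAAA. The Cd36 window (GRCm38.p6, chr5:17835847-17836146, minus strand) is shown because the RefSeq start in it lies 200 bases upstream of Cd36-201, whose first exon is 1 of several read in this gene, with the nuclear receptor half-site AGGTCA, here on the opposite strand, in capitals.
Cd36 promoter: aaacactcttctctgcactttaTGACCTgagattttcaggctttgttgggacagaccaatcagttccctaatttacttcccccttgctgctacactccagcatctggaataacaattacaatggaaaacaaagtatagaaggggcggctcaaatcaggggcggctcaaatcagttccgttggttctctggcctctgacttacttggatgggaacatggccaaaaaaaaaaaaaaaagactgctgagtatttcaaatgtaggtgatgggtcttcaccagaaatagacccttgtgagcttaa
RefSeq windows were matched for 8 of the 10 genes. AGGTCA was found on either strand in 3 of the 8, Cd36, Acadm and Acadvl, and in 16.3% of the 32851 promoter windows of the table. In Acadm it lay within AAGGTCA, which was in 4.72% of all windows. GGGCGG was in 5 of the 8 and in 35.7% of all windows. The windows of Hadha and Hadhb overlap, and the Hadha match is the same site as a Hadhb match, so the 5 are not all separate. CCAAT was in 1 of the 8 and in 37.4% of all windows. TATAAA (13.6% of all windows) and the direct repeat AGGNCANAGGNCA (0.381%) were in none of the 8. A match of letters is a description of the window and shows no binding.

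The 10 genes together made up 0.430% of replicate 2 and 0.221% of replicate 1. By mean level they ranked between 99th and 1319th of the 14900 genes, so the lowest of them was within the top 8.85%. For each gene a two-sided Fisher's exact test set its reads against the rest of each library, with Benjamini-Hochberg adjustment over the 9032 genes that had 10 or more reads in the libraries together. A call needed an adjusted p under 0.05 as well as a 2-fold difference in CPM. Log2 ratios divide replicate 2 by replicate 1 after adding 1 to each CPM, so they run small for weakly read genes. The test compares these libraries, not conditions, its intervals cover counting error only, and no difference has a replicate check.

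The uptake genes were the 3 called higher in replicate 2, none of the 10 was called lower, and 7 were not called. Over all genes tested, 8.51% were called higher and 2.15% lower. With no fold minimum all 10 genes had an adjusted p under 0.05 and were higher, as were 14.8% of genes tested, and at 1.5-fold 9 of the 10 passed, as did 12.8% of genes tested. TMM scaling or DESeq2 size factors left 8 of the 10 under 0.05 and centring for length, described below, left 7. The share of all genes under 0.05 with these settings is not given here. At 2-fold the 3 calls held with TMM and DESeq2, beside 5.07% and 5.02% of all genes called higher. After centring 2 of them held, beside 3.06% of all genes. All 10 genes were within the top 8.85% by mean level, and genes with many reads pass 0.05 at smaller differences. The log2 ratio was above 0 in all 10 genes, as it was in 61.3% of the genes tested, and its median was 0.84 over the 10, against 0.19 over all genes tested. It was 1.45 over the uptake genes and 0.78 over the 7 genes of the shuttle and of beta-oxidation. The slow and oxidative fibre markers, 9 of 9 called higher with a median log2 ratio of 3.22, moved in the same direction between the libraries; their part in the result was not tested. In bulk tissue, a different number of cells of one type and a different amount of RNA per cell cannot be told apart.

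**Figure D1:**
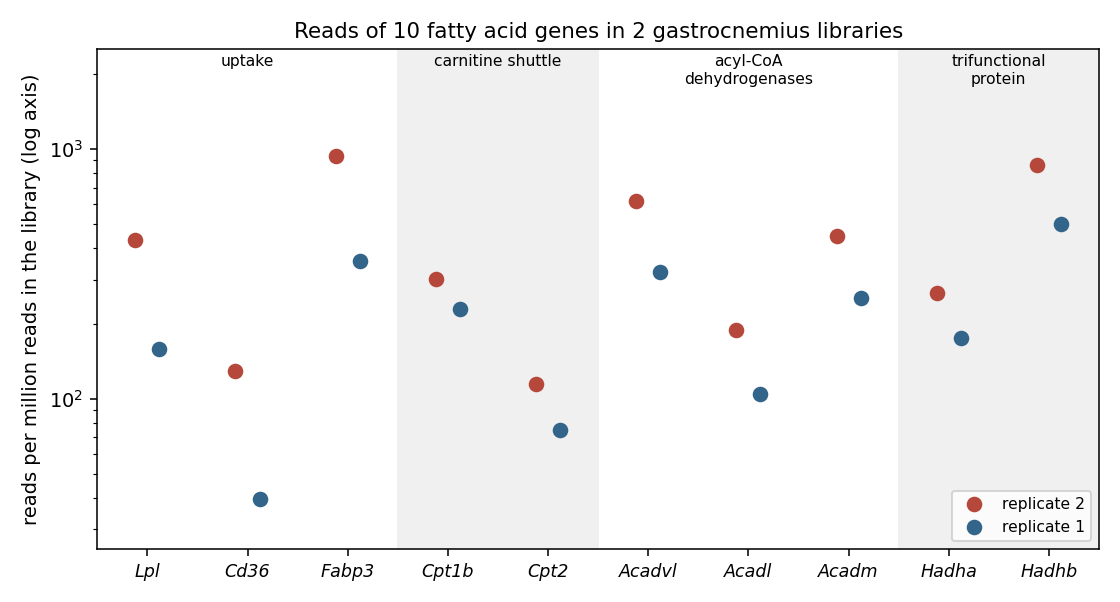
Level of each gene in each library, in CPM on a log axis; each point is 1 library, replicate 2 on the left and replicate 1 on the right. Replicate 2 is above replicate 1 for all 10 genes, and the gap is widest for Cd36, at 129 CPM in replicate 2 and 39.8 CPM in replicate 1.

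Among the uptake genes, Lpl (chr8:68880491-68907448, plus strand; all gene positions are GENCODE M21 on mm10) encodes lipoprotein lipase. It had 506 reads, or 431 CPM, in replicate 2, against 238 reads, or 158 CPM, in replicate 1. The level was 2.74-fold higher in replicate 2 (95% interval 2.34 to 3.20), a log2 ratio of 1.45 with an adjusted p of 2.07e-38 by Fisher's exact test. Gpihbp1, which anchors the enzyme on endothelium, counted 18 reads in replicate 2, against 28 in replicate 1, and Lmf1, which helps the enzyme fold, counted 22 in replicate 2, against 16 in replicate 1. Neither was called.

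Cd36 (chr5:17781690-17888801, minus strand), the membrane fatty acid translocase, was the lowest of the 10 by mean level. It had 151 reads, or 129 CPM, in replicate 2, and 60 reads, or 39.8 CPM, in replicate 1. The level was 3.24-fold higher in replicate 2 (95% interval 2.39 to 4.44; log2 ratio 1.67, adjusted p 2.09e-14 by Fisher's exact test), the largest ratio and the widest interval of the 10. CD36 is also made by endothelium, adipocytes and macrophages. Of the endothelial markers, 3 of the 9 tested (Kdr, Tek and Cldn5) were called higher (Kdr and Cldn5 with TMM or DESeq2, Cldn5 alone after centring for length), and the 10 markers summed to 184 CPM in replicate 2, against 105 CPM in replicate 1. Of the adipocyte markers, 1 of the 5 tested (Lep) was called higher, and the 8 markers summed to 141 CPM in replicate 2, against 128 CPM in replicate 1. Cfd went the other way, with 32 reads in replicate 2, against 77 in replicate 1. It was called lower at 2-fold with TMM or DESeq2, but not in the main test or after centring for length. The 5 macrophage markers summed to 48.6 CPM in replicate 2, against 75.5 CPM in replicate 1, with Cd68 at 0 reads in replicate 2 and 1 read in replicate 1. Of the 3 tested, Cd74 was called lower in replicate 2 (16 reads in replicate 2, against 49 in replicate 1), but not after centring for length. The part of these cells in the Cd36 reads was not tested.

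Fabp3 (chr4:130308595-130315463, plus strand), the fatty acid binding protein of heart and muscle, had 1101 reads, or 938 CPM, in replicate 2, the highest level of the 10 there. In replicate 1 it had 539 reads, or 357 CPM, second to Hadhb. The level was 2.63-fold higher in replicate 2 (95% interval 2.37 to 2.92; log2 ratio 1.39, adjusted p 7.81e-79 by Fisher's exact test). Fabp4, the adipocyte member of the family, counted 46 reads in replicate 2, against 59 in replicate 1, so Fabp3 made up 96.0% of the reads of the pair in replicate 2 (Clopper-Pearson 95% interval 94.7 to 97.0) and 90.1% in replicate 1 (87.5 to 92.4). The processed pseudogene Fabp3-ps1 took 2 reads in replicate 2 and 0 in replicate 1, and reads shared between it and Fabp3 could have been placed on either.

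Of the shuttle genes, Cpt1b had the smallest ratio of all the genes described, and the ratio of Cpt2 was close to that of Hadha. Cpt1b (chr15:89416405-89425863, minus strand), the muscle form of the outer-membrane carnitine palmitoyltransferase that commits acyl-CoA to oxidation, had 353 reads, or 301 CPM, in replicate 2, and 344 reads, or 228 CPM, in replicate 1. Its level was 1.32-fold higher in replicate 2 (95% interval 1.13 to 1.54; log2 ratio 0.40, adjusted p 0.00256 by Fisher's exact test), short of the 2-fold minimum. With TMM scaling the log2 ratio was 0.20 (adjusted p 0.215 by Fisher's exact test) and with DESeq2 size factors 0.20 (adjusted p 0.228). Cpt1a, the liver form, had 7 reads in each library, so Cpt1b made up 98.1% of the reads of the pair in replicate 2 (95% interval 96.0 to 99.2) and 98.0% in replicate 1 (95.9 to 99.2).

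Cpt2 (chr4:107903981-107923610, minus strand), the inner-membrane enzyme that turns the carnitine ester back into acyl-CoA, had 134 reads, or 114 CPM, in replicate 2. It had 113 reads, or 74.9 CPM, in replicate 1. Its ratio was 1.53-fold (95% interval 1.18 to 1.98; log2 ratio 0.60, adjusted p 0.00779 by Fisher's exact test), and it was not called. With TMM scaling the log2 ratio was 0.41 (adjusted p 0.105 by Fisher's exact test) and with DESeq2 size factors 0.40 (adjusted p 0.120). Between these enzymes works the translocase Slc25a20, with 30 reads in replicate 2 and 16 in replicate 1, which was called higher at a log2 ratio of 1.20 (adjusted p 0.0245 by Fisher's exact test). That call was lost with TMM scaling (adjusted p 0.0789) and DESeq2 size factors (adjusted p 0.0790, both by Fisher's exact test). After centring for length it was kept, at a log2 ratio of 1.29.

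The acyl-CoA dehydrogenases, which carry out the first oxidation on very long, long and medium chains, had nearly the same ratio between the libraries. Acadvl (chr11:70010183-70015411, minus strand) had 727 reads, or 620 CPM, in replicate 2, and 486 reads, or 322 CPM, in replicate 1. Acadm (chr3:153922357-153944632, minus strand) had 527 reads, or 449 CPM, in replicate 2, and 381 reads, or 252 CPM, in replicate 1. Acadl (chr1:66830839-66863277, minus strand) was the lowest of the dehydrogenases described, at 222 reads, or 189 CPM, in replicate 2, and 157 reads, or 104 CPM, in replicate 1. Their folds of replicate 2 over replicate 1 were 1.92 for Acadvl (95% interval 1.71 to 2.16), 1.78 for Acadm (1.56 to 2.04) and 1.82 for Acadl (1.48 to 2.25). None was called at 2-fold, and the counting interval of Acadl, Acadm and Acadvl each reached past 2. Of the reads of the 3 genes, Acadvl took 49.3% in replicate 2 (95% interval 46.7 to 51.8) and 47.5% in replicate 1 (44.4 to 50.6). Acadm took 35.7% in replicate 2 and 37.2% in replicate 1, and Acadl took 15.0% in replicate 2 and 15.3% in replicate 1. The mix of the 3 dehydrogenases thus differed by less than the counting intervals while their summed level was 1258 CPM in replicate 2 and 678 CPM in replicate 1.

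Hadha and Hadhb encode the alpha and beta subunits of the mitochondrial trifunctional protein, which performs the later steps of the cycle on long chains. Hadhb (chr5:30155248-30184593, plus strand) had the highest mean level of the 10, with 1012 reads, or 863 CPM, in replicate 2, and 755 reads, or 500.2 CPM, in replicate 1. Hadha (chr5:30118304-30155162, minus strand) had 311 reads, or 265 CPM, in replicate 2, and 265 reads, or 176 CPM, in replicate 1. The folds of replicate 2 over replicate 1 were 1.72 for Hadhb (95% interval 1.57 to 1.90) and 1.51 for Hadha (1.28 to 1.79), and neither was called. Hadha made up 23.5% of the reads of the pair in replicate 2 (95% interval 21.2 to 25.9) and 26.0% in replicate 1 (23.3 to 28.8), so the beta subunit had several reads for each read of the alpha subunit in both libraries. The most read transcripts differ in length, at 4.02 kb for Hadha-205 and 2.03 kb for Hadhb-201.

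The length of a transcript moved with the ratio between the libraries, so each ratio was also centred on the running median ratio of genes with similar transcript lengths. Lengths were those of the most read annotated transcript. Unannotated Lpl and Hadha models ended short of that transcript's end, as described below, and the effect of this on the centring was not tested. The centred log2 ratio was 1.79 for Fabp3, whose transcript is the shortest at 0.823 kb, and 1.38 for Cd36, and both kept their call. It was 0.95 for Lpl, at 4.12 kb the longest, which lost its call on the fold minimum (adjusted p 2.59e-16 by Fisher's exact test). It was 0.89 for Acadvl, 0.90 for Acadl, 0.79 for Acadm and 0.74 for Hadhb, near their values before centring. For Cpt2 it was 0.49 (adjusted p 0.0611), for Cpt1b 0.13 (adjusted p 0.557) and for Hadha 0.10 (adjusted p 0.758, all by Fisher's exact test), so these 3 genes were not called at any fold after centring.

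**Figure D2:**
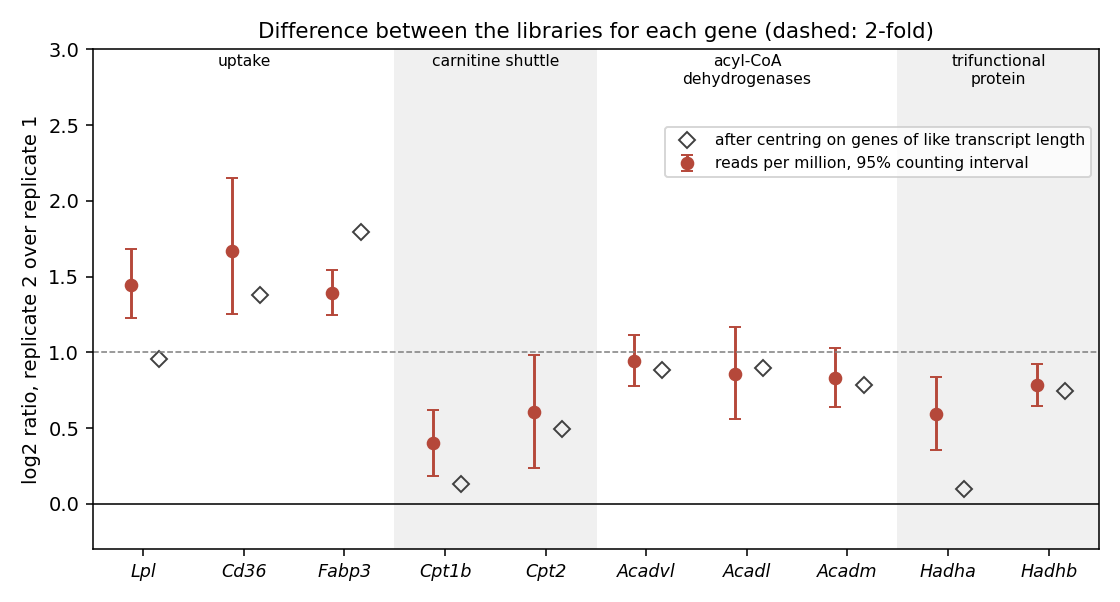
Log2 ratio of replicate 2 over replicate 1 for each gene; filled circles are ratios of CPM with 95% counting intervals, open diamonds the ratios after centring for transcript length, and the dashed line is 2-fold. Circles of Lpl, Cd36 and Fabp3 lie above the dashed line, and the diamonds of Cpt1b at 0.13 and Hadha at 0.10 lie near 0.

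By mean level the order was Hadhb, Fabp3, Acadvl, Acadm, Lpl, Cpt1b, Hadha, Acadl, Cpt2 and Cd36. The ranges of every neighbouring pair in this order overlapped, but all 10 genes were higher in replicate 2, so the overlap includes that shared difference. Within each library Acadvl ranked 3rd, Acadm 4th and Acadl 8th, and Cpt1b was above Hadha. Hadhb and Fabp3 changed places between the libraries, as did Cpt2 and Cd36. Lpl ranked 5th in replicate 2 and 7th in replicate 1. A long read is meant to count 1 transcript copy, so CPM was not divided by length for this order. Transcript length did move with the ratio between the libraries, as described above, and its effect on the order was not tested. Per kilobase of the most read annotated transcript the mean level was 787 CPM per kb for Fabp3, which then came first, and 335 CPM per kb for Hadhb. On that scale Cd36 stayed last at 27.9 CPM per kb, and Lpl stood seventh at 71.6 CPM per kb.

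Most reads of the 10 genes followed an annotated transcript from end to end of its splice chain. The share was 89.3% of 5044 reads in replicate 2 and 89.8% of 3338 reads in replicate 1, while over all genes it was 60.8% in replicate 2 and 64.2% in replicate 1. Incomplete splice matches, reads that follow part of an annotated chain, made up 5.63% of the reads of the 10 genes in replicate 2 and 6.98% in replicate 1. In all, 21 annotated transcripts were read, together with 266 unannotated models, of which 74 were read in both libraries.

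**Figure D3:**
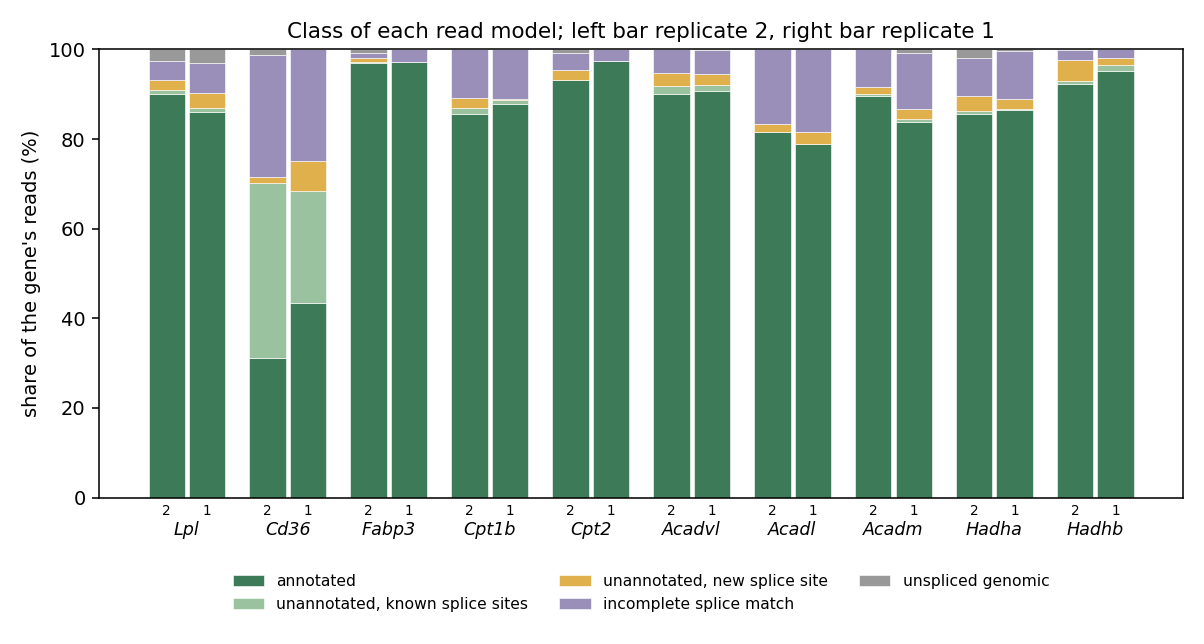
Share of each gene's reads by class of the read model, in percent; for each gene the left bar is replicate 2 and the right bar is replicate 1. Annotated reads make up most of each bar except for Cd36, where they are 31.1% in replicate 2 and 43.3% in replicate 1.

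In 8 genes a single transcript held at least 79.0% of the reads in both libraries. Fabp3-201 held 96.9% of the Fabp3 reads in replicate 2 and 97.2% in replicate 1, and Cpt2-201 held 93.3% in replicate 2 and 96.5% in replicate 1. The leading transcripts of Lpl, Cpt1b, Acadm, Acadl, Acadvl and Hadha held between 79.0% and 89.7% in either library. Over the 4574 genes read 20 or more times in both libraries, the median share of the most read annotated transcript was 78.0% in replicate 2 and 75.0% in replicate 1. When that share was compared between the libraries by Fisher's exact test with Benjamini-Hochberg adjustment, 2.36% of the 4574 genes were called, and 1 of the 10 genes, Hadhb. Acadm-201 held 89.6% of Acadm reads in replicate 2 and 83.7% in replicate 1, with an adjusted p of 0.243 by Fisher's exact test.

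In Hadhb the transcripts differ in where the first exon ends. Hadhb-201 held 57.8% of reads in replicate 2 (95% interval 54.7 to 60.9) and 67.4% in replicate 1 (63.9 to 70.8), an adjusted p of 0.00439 by Fisher's exact test. Hadhb-203, whose first exon ends 43 bases further on, held 32.5% in replicate 2 (29.6 to 35.5) and 27.4% in replicate 1 (24.3 to 30.7). Hadhb-202, which ends another 4 bases on, had 19 reads in replicate 2 and 1 in replicate 1. The end of the first exon is shown for each, in mm10 on the plus strand of chromosome 5. In the first line, chr5:30155328-30155353, capitals are the last exon bases of Hadhb-201 and the lower case is sequence that only the longer exons keep. In the second, chr5:30155371-30155386, lower case is the end of the Hadhb-203 exon and the capitals are the bases that only Hadhb-202 keeps.
Hadhb-201 exon end: GCGGACTCTAAGgtgcggcagcgcgc
Hadhb-203 and Hadhb-202 exon ends: atttccccacagGCAG
The intron of Hadhb-201 therefore begins with GT and that of Hadhb-203 with GC. All 3 transcripts start translation at the same position in exon 2 and encode 475 codons, so the choice of exon end alters the 5′ leader and not the protein. The annotated leader has 100 bases before the start codon in Hadhb-201, 119 in Hadhb-203 and 123 in Hadhb-202. The Hadhb-203 leader is longer than that of Hadhb-201 by fewer than 43 bases because their annotated 5′ starts differ too. Counted over all spliced Hadhb reads, whatever their later exons, the Hadhb-201 exon end was used by 604 reads, or 59.8% (56.7 to 62.8), in replicate 2 and by 521 reads, or 69.2% (65.8 to 72.5), in replicate 1. A further 28 reads in replicate 2 and 2 in replicate 1 began in an unannotated first exon ending at chr5:30160048, inside the first intron.

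Cd36 was the exception to a single leading transcript. Its most read annotated form, Cd36-201, held 11.3% of reads in replicate 2 (95% interval 6.70 to 17.4) and 13.3% in replicate 1 (5.94 to 24.6). The most read form of all was an unannotated chain of 16 exons with 49 reads, or 32.5% (25.1 to 40.5), in replicate 2 and 12 reads, or 20.0% (10.8 to 32.3), in replicate 1. It has the introns of Cd36-202 except that the exon with the start codon begins 3 bases upstream, as in Cd36-201. The join is shown on the minus strand, ending in exon bases at chr5:17828971, with the 3 bases in capitals.
Cd36 join with the 3 bases: catgaattagTAGaaccgggccac
Cd36 join without them: catgaattagaaccgggccac
The longer form was used by 99 of 113 reads across this join in replicate 2, or 87.6% (80.1 to 93.1), and by 40 of 45 in replicate 1, or 88.9% (75.9 to 96.3). The start codon lies downstream of the join and 5 of the 6 annotated Cd36 forms encode 472 codons from it, so these bases too are in the 5′ leader.

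Cd36 reads also began in several first exons. The first exon of Cd36-202 and Cd36-204 was used by 75 of 146 spliced reads in replicate 2, or 51.4% (43.0 to 59.7), and by 27 of 60 in replicate 1, or 45.0% (32.1 to 58.4). The first exon of Cd36-201 and Cd36-206, the one downstream of the RefSeq promoter window printed above, was used by 13.7% in replicate 2 (8.57 to 20.4) and 16.7% in replicate 1 (8.29 to 28.5). The first exon of Cd36-203 and Cd36-205, the most distant, was used by 11.6% in replicate 2 (6.93 to 18.0) and 11.7% in replicate 1 (4.82 to 22.6). The order of the first exons was the same in both libraries, and each pair of intervals overlapped. Among reads from the Cd36-202 first exon, a 54-base exon followed in 55 of 75 in replicate 2, or 73.3% (61.9 to 82.9), and in 14 of 26 in replicate 1, or 53.8% (33.4 to 73.4). A shortened chain of 2 exons, beginning within the gene, held 22 reads in replicate 2 and 10 in replicate 1.

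**Figure D4:**
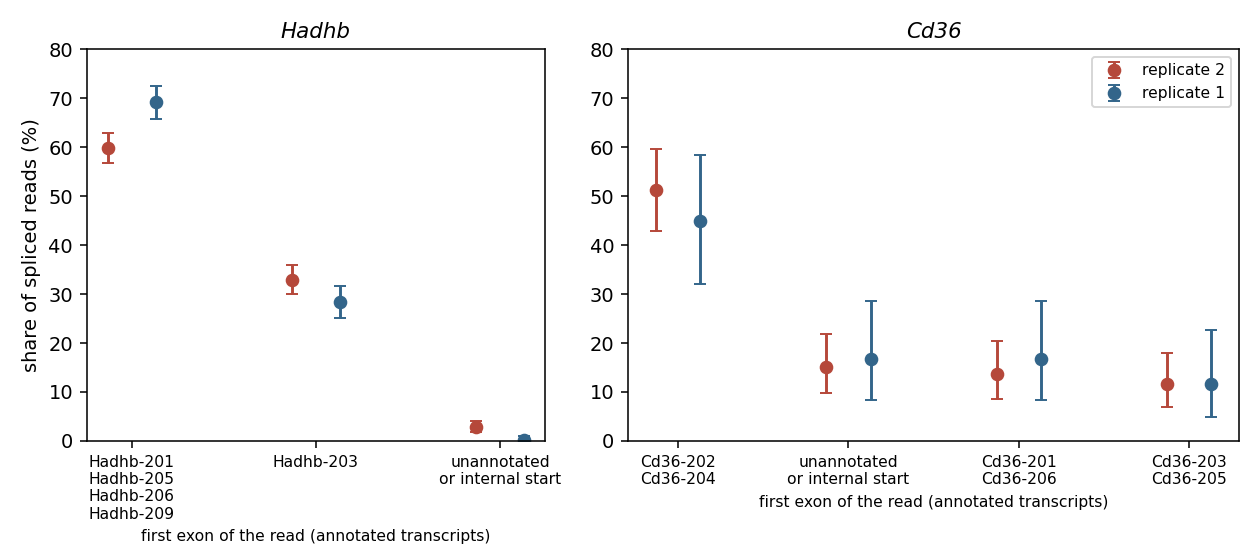
Share of spliced reads that begin in each first exon of Hadhb (left) and Cd36 (right), in percent with Clopper-Pearson 95% intervals; replicate 2 is left of replicate 1. For Hadhb the Hadhb-201 exon end stands at 59.8% in replicate 2 and 69.2% in replicate 1 with intervals that do not overlap, while all pairs of Cd36 intervals overlap.

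The 54-base Cd36 exon is not among the internal exons of the leading transcripts, since Cd36-201 begins in it. Of those 112 internal exons, 1 had an inclusion below 99%: exon 3 of Acadvl-202 (chr11:70014793-70014858, minus strand), 66 bases long and coding. It was kept in 678 reads and skipped in 12 in replicate 2, an inclusion of 98.3% (97.0 to 99.1), and kept in 455 and skipped in 8 in replicate 1, also 98.3% (96.6 to 99.3).
Acadvl exon 3: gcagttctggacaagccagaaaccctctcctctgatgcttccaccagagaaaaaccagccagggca
Most of the reads that skipped it, 12 in replicate 2 and 7 in replicate 1, were assigned to the annotated transcript Acadvl-201, which encodes 634 codons where Acadvl-202 encodes 656. The exon accounts for the 22 codons between them and keeps the reading frame.

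Reads that fell short of a full chain recurred at particular places. In Acadm, a 2-exon chain starting in the last 3 bases of the exon before the final one held 25 reads, or 4.74%, in replicate 2 and 36 reads, or 9.45%, in replicate 1. In Acadl, reads confined to the final exon numbered 14 in replicate 2 and 18 in replicate 1, and a chain of the last 9 exons had 12 reads in replicate 2 and 7 in replicate 1. All 3 are incomplete matches to the annotated chain.

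Annotated reads carry the ends of the annotation in these files, and unannotated models share their recorded ends to the base, so an end is that of the model and may not be the end of each read. Among unannotated models that keep the last intron of the leading transcript, all Hadha models (33 reads in replicate 2, 34 in replicate 1) ended at the annotated end of Hadha-201, 1122 bases before that of Hadha-205. The Lpl models ended 1922 bases before the end of Lpl-201 in 25 of 25 such reads in replicate 2 and 12 of 19 in replicate 1, at a position where no annotated Lpl transcript ends. Lpl also had an unannotated intron inside its final exon (chr8:68905163-68905820 from exon end to exon start) in 11 reads in replicate 2 and 7 in replicate 1. In Fabp3, an unannotated exon (chr4:130309442-130309602) after the first exon was in 10 reads of replicate 2 and in none of replicate 1, where a count of 0 allows up to 3 reads.

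Around these genes, 60 other genes of lipid uptake, storage, shuttle, oxidation and control were counted, of which 55 had enough reads to test. Of these, 12 were called higher in replicate 2, 0 lower, and 43 were not called. Of all genes tested, 8.51% were called higher and 2.15% lower. The counts were 5 higher and 1 lower with TMM scaling or DESeq2 size factors. Over all genes, 5.07% were called higher and 4.33% lower with TMM, and 5.02% higher and 4.38% lower with DESeq2. After centring for length, 4 of 54 were called higher and 1 lower, beside 3.06% and 1.76% of all genes. All of the 5 and of the 4 were among the 12. The median log2 ratio of the 55 was 0.44, against 0.19 over all genes tested, and 38 of them were above 0. With no fold minimum, 1 of them, Ucp3, was lower in replicate 2 (65 reads in replicate 2, 155 in replicate 1, adjusted p 0.000216 by Fisher's exact test). Ucp3 was also the 1 gene called lower at 2-fold with TMM scaling (log2 ratio -1.07), DESeq2 size factors (-1.08) and length centring (-1.03).

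Dgat2, which makes triglyceride, had the largest of these ratios. It counted 205 reads in replicate 2, against 59 in replicate 1 (log2 ratio 2.13, adjusted p 3.55e-27 by Fisher's exact test). The lipid droplet coats Plin5 (80 reads in replicate 2, 37 in replicate 1) and Plin2 (64 in replicate 2, 38 in replicate 1) and the monoglyceride lipase Mgll were also called higher, making 4 of the 10 storage genes. Dgat2 and Plin5 kept their calls under TMM, DESeq2 and length centring, Plin2 lost its call under both scalings, and Mgll lost its call after centring. In the uptake and activation list 2 of 12 were called higher, the acyl-CoA synthetase Acsl1 at a log2 ratio of 1.01 and the lipoprotein receptor Vldlr at 1.13. Acacb, whose product malonyl-CoA inhibits the CPT1 enzymes, was called higher at 1.13. These 3 calls were lost under TMM and DESeq2 and after centring for length, where the log2 ratios were 0.52 for Acsl1, 0.40 for Vldlr and 0.39 for Acacb.

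The other enzymes of mitochondrial beta-oxidation were not called in any of 12 cases, although 11 of the 12 log2 ratios were above 0, with a median of 0.46. Acat1, the thiolase that also acts on ketone bodies, had the highest level of these, with 303 CPM in replicate 2 and 184 CPM in replicate 1. Etfdh, which passes the electrons of the dehydrogenases to ubiquinone, was called higher at a log2 ratio of 1.07, while its partners Etfa at 0.54 and Etfb at -0.18 were not called. Hsd17b4, a peroxisomal enzyme of beta-oxidation, was called higher at 1.05. Among the regulators, the coactivator Ppargc1a was called higher at 1.47 with 43 reads in replicate 2 and 19 in replicate 1. After centring for length the calls of Ppargc1a (log2 ratio 0.79), Etfdh (0.96) and Hsd17b4 (0.86) were lost, and those of Etfdh and Hsd17b4 were also lost with TMM and DESeq2. Esrra, a nuclear receptor that works with Ppargc1a, was not called at 0.24. Ppara, the receptor that drives many of these genes in liver, had 7 reads in replicate 2 and 0 in replicate 1, too few to test.

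**Figure D5:**
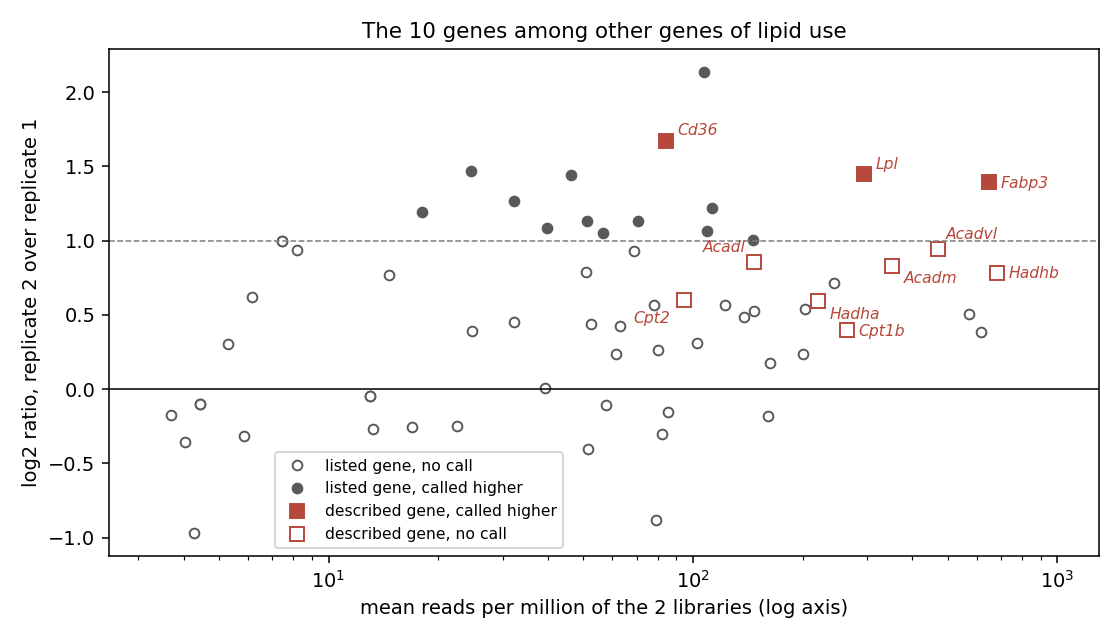
Log2 ratio of replicate 2 over replicate 1 against mean level in CPM (log axis) for the 10 genes (squares, named) and the 55 other tested genes of lipid use (circles); filled symbols were called higher. The 3 filled squares are Cd36, Lpl and Fabp3, and 12 of the circles are filled.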

How the data were processed

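The authors deposited a table for each library with an untransformed read count for every transcript model. Per the README files, they counted reads from alignments to mm10 with the GENCODE M21 annotation, and TALON is named as the source in the annotation files. The aligner and platform are not stated in these sources. Gene counts are sums over every read class of an annotated gene, and intron chains were used to match unannotated models across libraries. Fisher's exact tests ran in Python 3.11.15 with scipy 1.17.1, on all annotated genes except spike-in controls, and were tested on simulated data. Shares carry Clopper-Pearson intervals for counting error only. Alternative scalings came from edgeR 4.0.16 (TMM) and DESeq2 1.42.0. Other alternatives were the length centring, read and fold minimums, read classes and spike-in totals, the last chosen after seeing the data. The 10 genes and all lists were chosen with earlier results of these data known. All 10 genes and the listed pathway and marker genes were eligible to be named. Promoter windows are from RefSeq (GRCm38.p6) and exon sequences from GENCODE M21 transcripts.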

Additional observations from a re-analysis of the deposited data

Results flagged for a closer look

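Reads on the opposite strand of the 10 genes are outside the counts used above. Unannotated antisense models over Hadhb held 6 reads in replicate 2, above the 3 reads that a count of 0 allows in a library, and 2 reads in replicate 1. Over Acadl, Cd36, Hadha and Lpl such models held no more than 3 reads in either library. Unannotated opposite-strand reads of the 5 genes numbered 14 in replicate 2 and 9 in replicate 1. The 14 include 1 read over Hadhb from a model classed as intergenic and not as antisense. Over the 3′ end of Fabp3 the opposite strand belongs to the annotated gene Zcchc17, which had 62 reads in replicate 2 and 105 in replicate 1.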

How the results depend on the processing

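The 3 calls among the 10 genes held with TMM scaling, DESeq2 size factors, no read minimum, annotated transcripts only, no incomplete or genomic models, and library totals without spike-in controls; centring on length left 2, a fold minimum of 1.5 gave 9 and no fold minimum gave 10. Of 70 ratios of the 10 genes recomputed with another scaling, read class, library total or pseudocount, 70 were above 0, and 69 kept their side of the 2-fold call; Lpl after centring lost it. The pathway genes called higher numbered 5 with TMM, 5 with DESeq2, 4 after centring and 22 with no fold minimum. In the same order, 5.07%, 5.02%, 3.06% and 14.8% of all genes were called higher. With each of these, and at 1.5-fold, 1 pathway gene, Ucp3, was called lower. The shares of all genes called lower were 4.33%, 4.38%, 1.76% and 6.57%, and 4.88% at 1.5-fold. TMM moved the median log2 ratio of all genes to 0.00, where 0.19 stood before, and the share of calls that were higher to 53.9%, where 79.9% stood before; with DESeq2 it was 53.4% and after centring 63.5%, with 264 genes higher and 152 lower. Hadhb was the 1 gene called for its transcript share in each of the 4 alternatives, with adjusted p between 0.00439 and 0.00742 by Fisher's exact test. No paired analysis was possible because there was 1 group of 2 libraries. Depth limits Cd36 and Cpt2 most, with 60 and 113 reads in replicate 1.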
